A study of Homo sapiens with 6 samples.

Results

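IL1A, IL1B, IL6, IL11 and LIF, 5 cytokine genes of the interleukin-1 and interleukin-6 families, were described in human A2058 melanoma cells that overexpressed TET2 constructs and were grown at 2 glucose concentrations. The genes were selected on measured values, because some of them had been seen to rise in the TET2WT line while chemokine genes fell. The differences between TET2WT and the other lines are therefore given for them as a description, with no test. All 8 probe sets that the platform annotation gives to 1 of these genes alone were read, out of 41091 such probe sets for all genes. All 5 genes were among the 14428 genes tested, each through its probe set of highest mean, and 7 of the 8 probe sets lay above the low-value level used for the tests, 2.64 on the log2 scale.

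Interleukin-1 alpha and beta are the agonists of the type 1 interleukin-1 receptor, which signals through MYD88 and IRAK kinases to NF-kB and AP-1. Interleukin-1 alpha is active as a precursor and held in the cell, whereas interleukin-1 beta has to be cut, classically by caspase-1 in an inflammasome, before it is released in active form. Interleukin-6, interleukin-11 and LIF each bind a receptor subunit of their own and share the signalling chain gp130, encoded by IL6ST, which works through JAK kinases and STAT3. Melanoma cells are known to produce cytokines of both families themselves.

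Total RNA was measured on 6 Affymetrix arrays, 1 for each combination of 3 A2058 lines and 2 glucose concentrations. A2058 is an established human melanoma line. TET2 oxidises methylated cytosines, a step in active DNA demethylation. The lines were TET2WT, which overexpressed a construct labelled wild type, TET2M, which overexpressed a construct that another label calls Mut, and Mock, the control. All were kept for 7 days in DMEM with 4.5 g/L glucose (high) or 1 g/L glucose (normal) and split during growth. What the mutation in TET2M is, which promoter drove the constructs, and whether a line was 1 clone are not stated in the labels. With 1 array per combination, p-values measure the spread that a model with additive line and glucose terms leaves among these arrays, which may be technical, and in bulk RNA fewer expressing cells and less RNA per cell cannot be told apart.

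The labels were checked on TET2 itself. Probe set 1569385_s_at read 9.54 and 9.68 on the TET2WT arrays, 7.57 and 7.37 on the TET2M arrays, and 3.81 and 4.13 on the Mock arrays, at high and normal glucose in each line. Of the other 2 TET2 probe sets, 235461_at read 6.64 and 6.87 in TET2WT, 4.57 and 3.89 in TET2M, and 2.10 and 2.64 in Mock, while 227624_at read 5.15 to 5.41 on all 6 arrays and did not separate the lines. In the probe sets that did, the overexpressing lines differed in TET2 signal, and signal and construct cannot be told apart between TET2WT and TET2M. Of 7 melanocyte markers measured, SOX10 (9.38 to 9.65) and S100B (7.20 to 7.90) were far above the low-value level on every array, and the pigment genes MLANA and TYR lay below the low-value level on all of them. The leukocyte markers PTPRC, CD14, CSF1R and MS4A1, 4 of 8 measured, also lay below that level on all 6 arrays, and the log2 values of the 8 summed to 23.6 and 22.92 in TET2WT, 22.63 and 22.39 in TET2M, and 23.05 and 24.03 in Mock. LYZ, one of the 8 and expressed by myeloid cells, differed by -0.77 ± 0.088 between TET2WT and Mock (adjusted p = 0.0116, limma). KRT14, a keratinocyte marker, differed by -2.40 (adjusted p = 0.000442, limma), while 5 of the 6 keratinocyte markers tested did not pass (list median -0.055). The melanocyte regulator MITF differed by -0.60 (adjusted p = 0.0433, limma). It was the only 1 of 5 tested melanocyte markers to pass, and the other 4 had a higher mean in TET2WT than in Mock (list median 0.155). The part of these markers in the cytokine values was not tested.

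The 250 bases upstream of each gene's start show how different the proximal promoters of these genes are in CpG content and in matches to AP-1 and NF-kB motifs. RefSeq promoter sequences on GRCh38.p14 were at hand for 4 of the 5 genes: IL1A at chr2:112784494-112784743 on the minus strand, IL1B at chr2:112836780-112837029 on the minus strand, IL6 at chr7:22726950-22727199 on the plus strand, and IL11 at chr19:55370464-55370713 on the minus strand. Capitals mark motif matches, and each sequence ends next to the start.
IL1A: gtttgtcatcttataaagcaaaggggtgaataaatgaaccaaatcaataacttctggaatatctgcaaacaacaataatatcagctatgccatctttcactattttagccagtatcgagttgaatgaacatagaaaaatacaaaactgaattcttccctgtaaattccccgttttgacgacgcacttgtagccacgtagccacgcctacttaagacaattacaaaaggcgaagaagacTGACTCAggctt
IL1B: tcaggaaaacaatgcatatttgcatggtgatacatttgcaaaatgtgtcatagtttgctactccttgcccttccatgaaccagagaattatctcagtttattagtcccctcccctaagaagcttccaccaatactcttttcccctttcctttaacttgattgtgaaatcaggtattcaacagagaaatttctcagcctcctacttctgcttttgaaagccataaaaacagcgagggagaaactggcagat
IL6: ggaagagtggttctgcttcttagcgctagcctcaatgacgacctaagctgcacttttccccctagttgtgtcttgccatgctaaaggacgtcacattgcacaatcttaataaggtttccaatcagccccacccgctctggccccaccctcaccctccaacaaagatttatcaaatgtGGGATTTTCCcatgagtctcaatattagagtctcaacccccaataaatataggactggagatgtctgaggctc
IL11: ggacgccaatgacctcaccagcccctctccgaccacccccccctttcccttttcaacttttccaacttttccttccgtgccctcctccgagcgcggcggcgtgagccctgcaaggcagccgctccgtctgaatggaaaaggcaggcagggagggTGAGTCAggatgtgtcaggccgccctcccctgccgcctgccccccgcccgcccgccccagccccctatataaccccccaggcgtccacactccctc

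These sequences held 7 CpG dinucleotides for IL1A, 1 for IL1B, 4 for IL6 and 16 for IL11. Across the 34943 promoter sequences of the same length in the table the median was 11. The GC content was 37.6% for IL1A, 40% for IL1B, 47.6% for IL6 and 67.2% for IL11, against a median of 58%. The AP-1 motif TGANTCA, searched on both strands, matched in IL1A (TGACTCA, 12 to 6 bases before the start) and in IL11 (TGAGTCA, 96 to 90 bases before the start), and 6.59% of all the sequences held it. The NF-kB motif, GGGA and TTCC with any 2 bases between them, was also searched on both strands and matched in IL6 (GGGATTTTCC, 73 to 64 bases before the start), and 1.4% of all the sequences held it. None of these sequences held both motifs, and that of IL1B held neither. These arrays measured neither DNA methylation nor factor binding at the promoters.

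Of the interleukin-1 family ligands, IL1A read 5.92 on the high-glucose and 6.84 on the normal-glucose array of TET2WT, 5.26 and 5.76 on those of TET2M, and 5.55 and 5.83 on those of Mock (probe set 210118_s_at, log2 values). The normal-glucose TET2WT array stood 1.01 above its Mock counterpart, while the high-glucose TET2WT array stood 0.37 above its own and 0.09 above the highest array of the other lines. The gene's other probe set, 208200_at, read 2.36 to 2.60 and was below the low-value level on all 6 arrays, so the values of IL1A rest on 1 probe set.

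IL1B was near the low-value level outside TET2WT. Probe set 205067_at read 4.02 and 3.85 in TET2WT, 2.69 and 2.68 in TET2M, and 2.83 and 2.93 in Mock, at high and normal glucose in each line. Both TET2WT arrays lay, in that order, 1.19 and 0.92 above Mock and 1.33 and 1.17 above TET2M. The second IL1B probe set, 39402_at, read 3.21 and 3.68 in TET2WT, 2.50 and 2.73 in TET2M, and 2.61 and 2.86 in Mock. Both probe sets put both TET2WT arrays above the other 4, and the second gave smaller differences from Mock, 0.60 at high and 0.82 at normal glucose.

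Of the interleukin-6 family ligands, IL11 is a cytokine of stromal cells and bone that binds IL11RA. In the probe sets used in the tests, IL11 showed the widest gap between TET2WT and TET2M of the 3. Probe set 206924_at read 6.81 and 6.98 in TET2WT, 5.47 and 5.81 in TET2M, and 6.09 and 6.18 in Mock. Its line means were highest in TET2WT and lowest in TET2M. TET2WT was 0.72 and 0.80 above Mock, and 1.34 and 1.17 above TET2M. The second probe set, 206926_s_at, read 4.28 and 4.65 in TET2WT, 4.08 and 4.32 in TET2M, and 4.12 and 4.09 in Mock. It gave smaller differences between TET2WT and Mock, 0.16 and 0.56, and between TET2WT and TET2M, 0.20 and 0.33. In it, TET2WT at high glucose lay below TET2M at normal glucose.

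LIF, which keeps mouse embryonic stem cells undifferentiated, read 7.85 and 8.0 in TET2WT, 6.90 and 7.65 in TET2M, and 7.21 and 7.63 in Mock (probe set 205266_at). Both TET2WT arrays were again the highest, by 0.64 and 0.37 over Mock and by 0.95 and 0.35 over TET2M. TET2M and Mock overlapped. IL6, the pyrogenic and acute-phase cytokine, had a single probe set, 205207_at, which read 2.87 and 2.60 in TET2WT, 2.75 and 2.50 in TET2M, and 2.64 and 3.02 in Mock. Its 3 lines overlapped, 3 of its 6 values lay below or at the low-value level, and its highest value was on the normal-glucose Mock array.

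**Figure D1:**
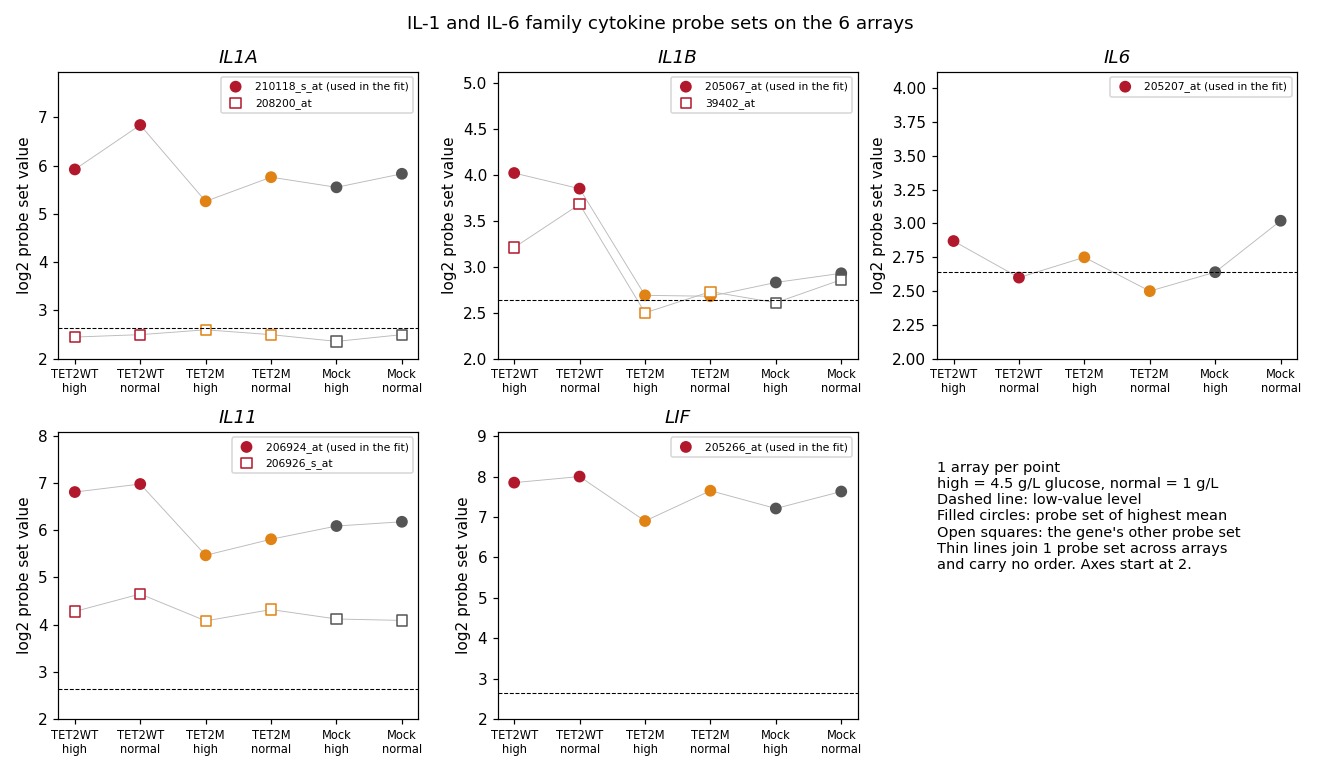
Log2 values of the 8 cytokine probe sets on each array, with 1 point per array, the lines TET2WT, TET2M and Mock from left to right, and high glucose left of normal glucose in each. Filled circles are the probe set used in the tests, open squares are the gene's other probe set, and the dashed line is the low-value level of 2.64. IL1A, IL1B, IL11 and LIF have both TET2WT arrays above the other 4 in the filled probe set, and IL6 lies around the dashed line on all arrays.

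Both TET2WT arrays were thus above the other 4 arrays in 4 of the 5 genes, IL1A, IL1B, IL11 and LIF. That pattern was part of how the genes were chosen. Across all 14428 genes tested it held for 12%. In these probe sets the order TET2WT, Mock, TET2M of the line means held for IL1A, IL1B, IL11 and LIF. TET2M and Mock overlapped in IL1A and LIF. They did not in the probe sets of IL1B and IL11 used in the tests, but they overlapped in the other probe set of both genes, and in that of IL11 the mean of TET2M, 4.20, was above the mean of Mock, 4.11. For IL6 the order was Mock, TET2WT, TET2M, with overlap throughout. The share of all genes with a given order of line means, or with lines that do not overlap, was not counted.

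The chemokine genes went the other way, which was likewise known when the genes were chosen. Of 8 tested, 7 had a lower mean in TET2WT than in Mock, with CCL5 the exception. CXCL8, which encodes the neutrophil attractant interleukin-8 and is a target of interleukin-1 signalling, read 6.49 and 7.88 in TET2WT, 8.58 and 9.62 in TET2M, and 10.73 and 11.56 in Mock. TET2WT had the lowest line mean for CXCL8, whereas it had the highest for IL11.

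IL1A and IL1B follow each other in the order of tested genes on chromosome 2 in the RefSeq annotation of GRCh38.p14. The nearest tested genes around them gave small differences: CKAP2L differed by 0.02 between TET2WT and Mock, IL37 by 0.06, IL1F10 by 0.14 and SLC20A1 by -0.17. Over the 16 nearest tested genes around all 5 cytokine genes, the differences between TET2WT and Mock ran from -0.17 to 0.25, and 0 of the 16 passed (smallest adjusted p = 0.333, limma, against 4.21% of all tested genes that passed). Several of the 16 read close to the low-value level of 2.64, where a difference could be missed. Among them were IL37 (3.06 to 3.31), IL1F10 (2.74 to 3.24), IL6-AS1 (2.72 to 2.91) and LIF-AS2 (2.50 to 2.84). Others, such as CKAP2L (7.63 to 7.86), lay far above it. OSM, an interleukin-6 family gene next to LIF in this order apart from an antisense gene, differed by -0.05.

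How glucose bears on these cytokines was asked across the 3 lines, a comparison the choice of genes had not used. IL1A read lower at high than at normal glucose in all 3 lines, with differences of -0.92 in TET2WT, -0.50 in TET2M and -0.28 in Mock. LIF read lower in all 3 as well, with differences of -0.15 in TET2WT, -0.75 in TET2M and -0.42 in Mock. IL11 gave -0.17, -0.34 and -0.09 in the same order of lines, and its second probe set, 206926_s_at, gave -0.37, -0.24 and 0.03. In the probe sets used in the tests, these 3 of 5 genes read lower at high glucose in every line, as did 20.7% of all genes tested.

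None of the 5 passed the test of the glucose difference (limma, Benjamini-Hochberg over 14428 genes, threshold 0.05). Over all genes tested, 1 passed (0.00693%), and 2218 had an unadjusted p under 0.05. That gene, LCN2, was named after its values were seen. IL1A had a mean difference of -0.57 ± 0.13 (SE, 95% interval -0.88 to -0.25, adjusted p = 0.174) and LIF one of -0.44 ± 0.12 (95% interval -0.74 to -0.14, adjusted p = 0.214). The intervals are not adjusted for the number of genes. IL11 had -0.20 ± 0.082 (adjusted p = 0.325), IL6 0.05 ± 0.14 (adjusted p = 0.906) and IL1B 0.03 ± 0.083 (adjusted p = 0.907). When the prior variance was allowed to follow the mean level, IL1A (adjusted p = 0.022) and LIF (adjusted p = 0.024) passed, among 573 genes that then passed.

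The probe sets of IL1B disagreed about glucose. Probe set 205067_at gave 0.17 in TET2WT, 0.01 in TET2M and -0.10 in Mock, and 39402_at gave -0.47, -0.23 and -0.25. The second probe set thus read lower at high glucose in every line, as IL1A did. IL6 gave 0.27 in TET2WT, 0.25 in TET2M and -0.38 in Mock, from values around the low-value level.

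**Figure D2:**
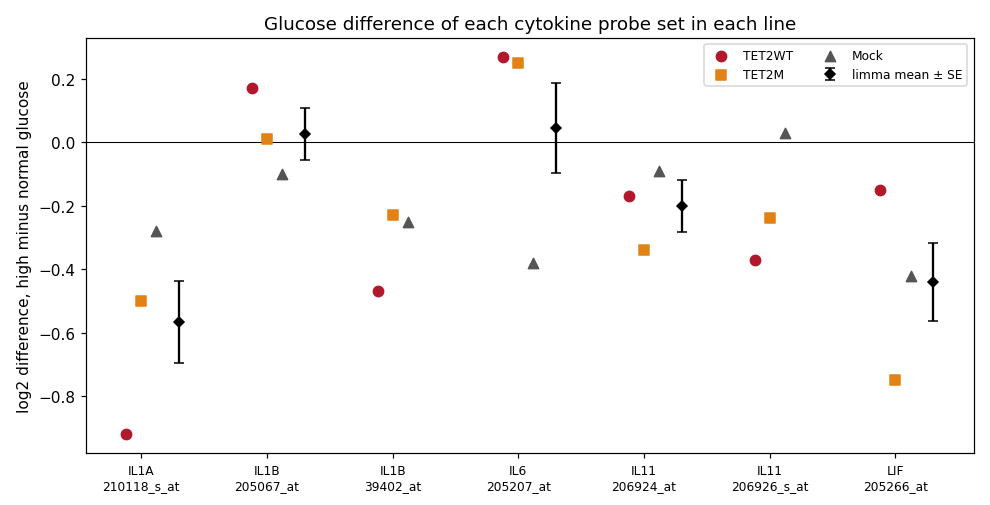
Log2 difference between high and normal glucose for the 7 cytokine probe sets above the low-value level. Coloured points are the difference between the 2 arrays of 1 line, and black diamonds with bars are the limma mean over the 3 lines ± SE for the probe set used in the test. IL1A, IL11 (206924_at) and LIF have all 3 lines below 0, and IL1B has them on both sides in one probe set and below 0 in the other.

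Whether the glucose response of TET2WT differed from the mean response of TET2M and Mock was tested with an interaction term. IL1A had the more negative response in TET2WT, by -0.53 ± 0.15 (adjusted p = 0.531, limma), and LIF the less negative one, by 0.44 ± 0.20 (adjusted p = 0.561). The term was 0.22 ± 0.11 for IL1B (adjusted p = 0.583), 0.34 ± 0.34 for IL6 (adjusted p = 0.739) and 0.05 ± 0.16 for IL11 (adjusted p = 0.93). None of the 5 passed, nor did any of the 14428 genes (0%), where 1325 had an unadjusted p under 0.05. This model left 1 residual degree of freedom.

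TET2M was set against Mock to see how the cytokines read with the other construct. It uses the same Mock arrays as the TET2WT values above. In the probe sets used in the tests, the mean of TET2M was below that of Mock in all 5 genes, and none passed. Of all genes tested, 44.2% had a positive difference in this comparison, and the median was -0.02. IL11 differed by -0.50 ± 0.10 (95% interval -0.74 to -0.25, adjusted p = 0.306, limma), with -0.62 at high and -0.37 at normal glucose. In its second probe set the mean difference was 0.10, in the opposite direction. The other 4 differed by -0.21 ± 0.17 for IL6 (adjusted p = 0.754), -0.20 ± 0.10 for IL1B (adjusted p = 0.608), -0.18 ± 0.16 for IL1A (adjusted p = 0.762) and -0.15 ± 0.15 for LIF (adjusted p = 0.803). Over all genes tested, 14 passed (0.097%), and 1372 had an unadjusted p under 0.05.

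The cytokines were set against each other and against 553 tested genes, by Pearson's r over the 6 arrays. These were the genes whose values spanned at least 1 log2 unit, without those of open reading frame, LOC, LINC, antisense and similar names. These values describe 6 arrays of 3 lines, in which any difference between lines is shared by many genes. The cytokines had been chosen partly on their TET2WT values, so the r values below are not independent of that choice. Among the cytokines, IL1B and IL11 were the most alike (r = 0.93), IL1A correlated with LIF at 0.86 and with IL11 at 0.85, and IL6 stayed between -0.17 and 0.16 with the other 4. The genes most like IL1A were IFIH1 (r = 0.98), which encodes the RNA sensor MDA5, the secreted protease gene HTRA1 (0.98) and the transcriptional repressor gene BHLHE40 (0.97). IL1B was most like SHTN1 (1.00), the phosphodiesterase gene PDE4B (0.99) and the semaphorin gene SEMA3G (0.99).

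IL11 was most like MAFF (r = 0.99), which encodes a small MAF transcription factor, followed by GPR137B (0.99) and the cathepsin H gene CTSH (0.98). MAFF read 9.06 and 9.07 in TET2WT, 7.61 and 7.77 in TET2M, and 8.17 and 8.34 in Mock. Its order of lines was that of IL11, which largely follows from its choice by r on the same arrays. LIF was most like CEBPD (r = 0.96), TMEM158 (0.96) and the stanniocalcin gene STC1 (0.95). For IL6 the highest values were lower, 0.76 with KRT3, 0.65 with MIR146A and 0.64 with ZNF354B.

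The other genes of both pathways were taken from lists of ligands, receptors, signal transducers and targets, 112 genes of which 86 were tested. Between TET2WT and Mock, 3 of the 86 were higher and 2 lower past the threshold (5.81%), against 290 higher and 318 lower of all genes (4.21%). The median difference was -0.04 in the lists and -0.01 over all genes. Between TET2WT and TET2M, 3 were higher and 0 lower (3.49%, against 3.3% of all genes), and the medians were 0.02 in the lists and 0 over all genes. None of the 86 passed between TET2M and Mock, for the glucose difference or for the interaction.

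Among interleukin-1 family genes, 0 of 4 other ligands and antagonists, 0 of 3 receptors, 0 of 12 signal transducers and 0 of 8 inflammasome and processing genes passed in any comparison. The receptor antagonist gene IL1RN, whose product blocks both agonists, read 2.91 and 2.79 in TET2WT, 2.43 and 2.63 in TET2M, and 2.79 and 2.86 in Mock, close to the low-value level throughout. The agonists' receptor gene IL1R1 read 2.58 and 2.66 in TET2WT, 2.28 and 2.39 in TET2M, and 2.32 and 2.26 in Mock, with a mean below that level, and was not tested. The coreceptor gene IL1RAP was measurable, at 6.10 and 5.95 in TET2WT, 5.88 and 5.83 in TET2M, and 5.74 and 5.65 in Mock, and differed by 0.33 between TET2WT and Mock (adjusted p = 0.11, limma). SIGIRR, which encodes a negative regulator of the receptor, differed by 0.32 (adjusted p = 0.116).

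Of the signal transducers, the kinase gene IRAK2 had the most negative difference between TET2WT and Mock, -0.55 ± 0.12 (adjusted p = 0.0739, limma), followed by TAB3 at -0.40 (adjusted p = 0.168). Of 13 inflammasome and processing genes, 8 had a mean above the low-value level. PYCARD, which encodes the adaptor ASC, was not among them. CASP1, which encodes the protease that cuts pro-interleukin-1 beta, read 2.78 and 2.71 in TET2WT, 2.53 and 2.69 in TET2M, and 2.64 and 2.55 in Mock. These CASP1 values lay around the low-value level of 2.64, with a mean of 2.65. AIM2, a DNA sensor gene, was measurable, at 6.14 and 6.86 in TET2WT, 6.63 and 7.01 in TET2M, and 6.44 and 6.98 in Mock. It read lower at high glucose in all 3 lines, with a mean difference of -0.55 that did not pass (adjusted p = 0.128, limma).

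Among interleukin-6 family genes, 0 of 4 other ligands and 0 of 6 JAK-STAT genes passed, and 1 of 7 receptors did. The receptor that rose was OSMR, which pairs with gp130 to bind oncostatin M. OSMR read 7.43 and 7.65 in TET2WT, 6.46 and 6.49 in TET2M, and 6.45 and 5.98 in Mock (probe set 226621_at), so that both TET2WT arrays lay above all others. The difference was 1.33 ± 0.17 between TET2WT and Mock (adjusted p = 0.0157, limma) and 1.07 ± 0.17 between TET2WT and TET2M (adjusted p = 0.0333). The other 2 OSMR probe sets gave 0.15 and 0.18 against Mock. With all 3 averaged the differences were 0.55 against Mock (adjusted p = 0.0356) and 0.46 against TET2M (adjusted p = 0.065), the second of which did not pass.

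The subunits that interleukin-6, interleukin-11 and LIF use did not pass. IL6ST, which encodes the shared chain gp130, read 9.67 and 9.66 in TET2WT, 9.17 and 9.22 in TET2M, and 9.58 and 9.43 in Mock, with a difference of 0.16 between TET2WT and Mock (adjusted p = 0.411, limma) and 0.47 between TET2WT and TET2M (adjusted p = 0.0636). IL11RA differed by 0.05 between TET2WT and Mock (adjusted p = 0.851), LIFR by -0.29 (adjusted p = 0.14) and IL6R by 0.01 (adjusted p = 0.984). STAT3 differed by 0.29 (adjusted p = 0.251). Oncostatin M itself, OSM, read 3.87 to 4.36 over the 6 arrays, and the cardiotrophin gene CTF1 differed by 0.40 (adjusted p = 0.38).

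**Figure D3:**
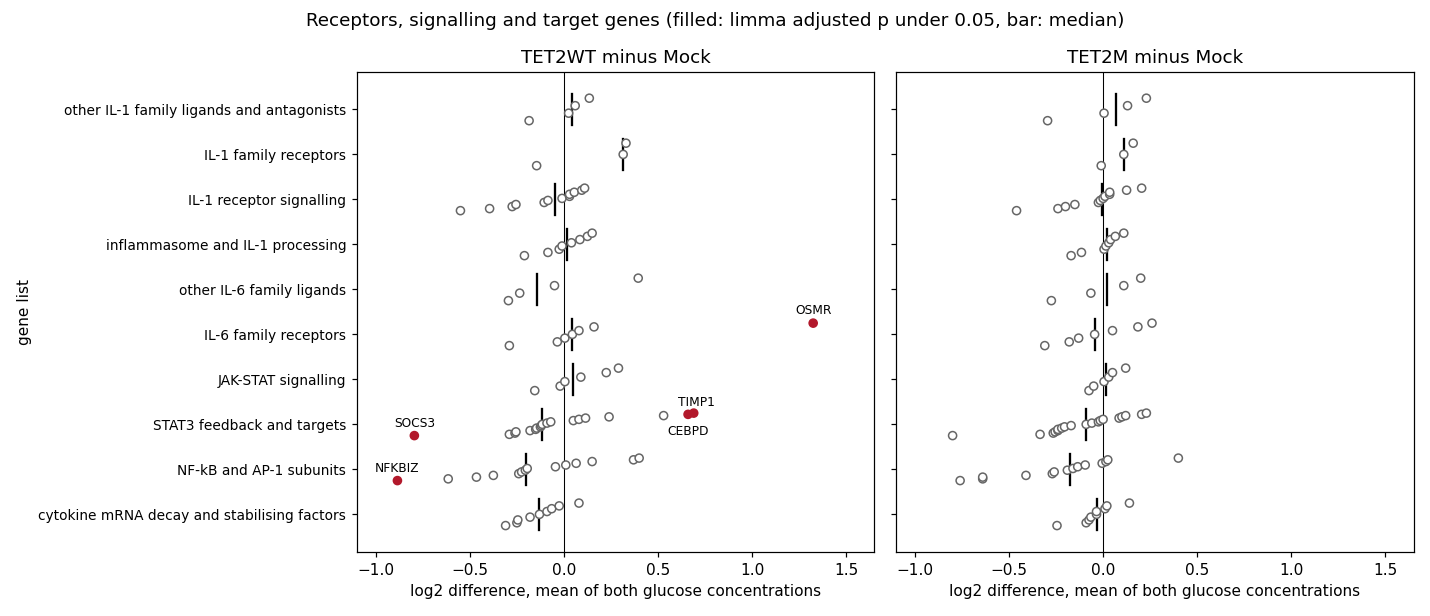
Log2 differences of the 86 tested pathway genes in 10 lists, TET2WT minus Mock on the left and TET2M minus Mock on the right, each the mean over both glucose concentrations, with 1 point per gene and a bar at the list's median. Filled points passed at an adjusted p under 0.05: OSMR, CEBPD and TIMP1 are higher in TET2WT, SOCS3 and NFKBIZ are lower, and no point in the right panel is filled. Both panels use the same Mock arrays.

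Of 19 STAT3 feedback and target genes, 2 rose and 1 fell between TET2WT and Mock, and the list's median was -0.12. CEBPD, an acute-phase transcription factor gene, read 6.49 and 6.84 in TET2WT, 5.72 and 6.26 in TET2M, and 5.83 and 6.18 in Mock, a difference of 0.66 ± 0.096 from Mock (adjusted p = 0.0224, limma) and 0.68 from TET2M (adjusted p = 0.0242). TIMP1, an inhibitor of metalloproteinases, read 10.96 and 11.09 in TET2WT, 10.40 and 10.51 in TET2M, and 10.29 and 10.38 in Mock, a difference of 0.69 ± 0.086 from Mock (adjusted p = 0.0142) and 0.57 from TET2M (adjusted p = 0.0286). Both had the TET2WT arrays above the other 4. Without the glucose term in the model, CEBPD did not pass against Mock (adjusted p = 0.211) or TET2M (adjusted p = 0.233), and TIMP1 did not pass against TET2M (adjusted p = 0.0536). The acute-phase gene SERPINA3 read 10.13 and 10.85 in TET2WT, 10.02 and 10.36 in TET2M, and 9.89 and 10.03 in Mock, and its difference from Mock of 0.53 did not pass (adjusted p = 0.122).

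SOCS3, the feedback inhibitor that binds gp130, fell. It read 4.13 and 4.36 in TET2WT, 4.11 and 4.37 in TET2M, and 4.97 and 5.11 in Mock (probe set 227697_at), a difference of -0.80 ± 0.089 between TET2WT and Mock (adjusted p = 0.0105, limma). TET2WT and TET2M were nearly alike in it, and the same-sized difference of -0.80 between TET2M and Mock did not pass (adjusted p = 0.0697). The other 3 SOCS3 probe sets gave -0.01, -0.31 and 0.08 between TET2WT and Mock, and the mean of all 4 gave -0.26 (adjusted p = 0.189), so the call rests on 1 probe set.

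Of 14 NF-kB and AP-1 genes, NFKBIZ fell between TET2WT and Mock and 13 did not pass, with a median of -0.20. NFKBIZ, an interleukin-1-induced nuclear cofactor of NF-kB that is needed for IL6 transcription in mice, read 6.22 and 6.44 in TET2WT, 6.45 and 6.70 in TET2M, and 6.85 and 7.58 in Mock. It differed by -0.89 ± 0.14 between TET2WT and Mock (adjusted p = 0.0314, limma), and its second probe set gave -1.04. Without the glucose term it did not pass (adjusted p = 0.127). The NF-kB inhibitor gene NFKBIA, a target of NF-kB, read 7.10 and 7.43 in TET2WT, 7.16 and 7.08 in TET2M, and 7.71 and 8.05 in Mock, a difference of -0.61 that did not pass (adjusted p = 0.0624). Between TET2M and Mock, NFKBIZ differed by -0.64 and NFKBIA by -0.76 without passing (adjusted p = 0.334 and 0.2). The AP-1 genes went both ways between TET2WT and Mock, and none passed. FOSL2 differed by 0.37 (adjusted p = 0.243, limma), with 0.66 at high and 0.08 at normal glucose, and FOS by 0.40 (adjusted p = 0.425). FOSL1 differed by -0.465 (adjusted p = 0.23) and FOSB by -0.24 (adjusted p = 0.296). JUN, JUND and ATF3 differed by less.

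**Figure D4:**
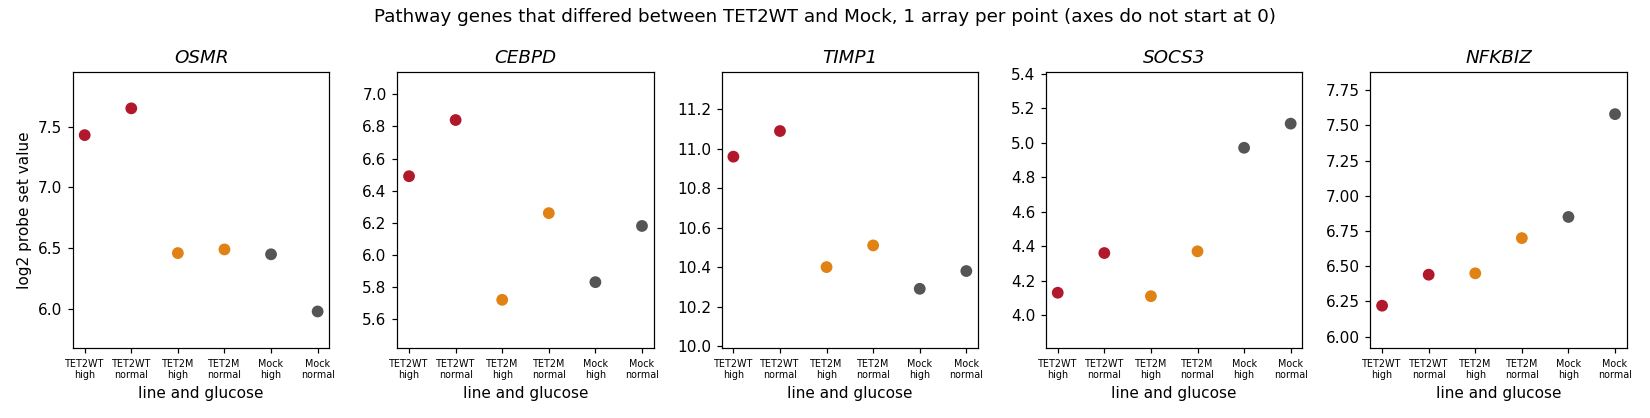
Log2 values on each array of the 5 pathway genes that passed between TET2WT and Mock, with 1 point per array, high glucose left of normal glucose in each line, and axes that do not start at 0. OSMR, CEBPD and TIMP1 have both TET2WT arrays above the other 4. SOCS3 and NFKBIZ have both TET2WT arrays below both Mock arrays, and in SOCS3 the TET2M arrays lie at the level of TET2WT.

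Factors that destabilise or stabilise cytokine transcripts showed no passing gene, 0 of 9 tested in each comparison. Between TET2WT and Mock their median difference was -0.13, with 8 of 9 on the negative side. Over all genes tested that median was -0.01, and 47.5% of the differences were positive. ZFP36L1, an mRNA decay factor gene, differed by -0.31 (adjusted p = 0.22, limma), RC3H2 by -0.25 (adjusted p = 0.234) and ZFP36L2 by -0.25 (adjusted p = 0.246). When any 1 of the 6 arrays was left out, 1 residual degree of freedom remained and none of the 5 pathway genes passed between TET2WT and Mock.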

How the data were processed

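Total RNA of 3 A2058 lines at 2 glucose concentrations was hybridised as biotinylated cRNA to 6 arrays. The deposited values are on a log2 scale. Per the submitters' processing notes, Affymetrix Expression Console was used; how it summarised probes or corrected background, and in which version, is not given in the sources used here. Log2 was inferred from the range of 1.56 to 13.78, and array medians lay between 2.96 and 3.03. Precision is limited by having 6 arrays.

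Of 54675 probe sets, 41091 non-control ones carried 1 gene symbol in the platform annotation, 1801 carried several and 11777 none; 41037 symbols were updated by gene ID through the RefSeq gene table of GRCh38.p14. Probe sets with a mean below the 40th percentile (2.64) were left out, and the probe set of highest mean stood for each gene, which gave 14428 genes. Additive models with line and glucose terms, and an interaction model for TET2WT, were fitted with limma 3.58.1 in R 4.3.3 (lmFit and eBayes, two-sided, Benjamini-Hochberg over all genes, threshold 0.05). The additive model had 2 residual and 3.97 prior degrees of freedom. The fits were tested on simulated data.

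The 5 cytokine genes, the lists, the tests and the naming rule were chosen with earlier results of these data known. All 5 genes are named with every single-gene probe set. By that rule the text names from each pathway list the genes that passed or, where none did, up to 3 with the largest differences. Chemokines, of which more passed than are named, are summarised with CXCL8 and CCL5. Other genes that did not pass or were not tested are named outside that rule and were chosen after their values were seen. They include IL1RN, IL1R1, OSM, IL6ST, CASP1, SERPINA3, NFKBIA and the AP-1 genes. Some of them differed less than unnamed genes of the same list. For each cytokine the text names the 3 genes of highest Pearson's r, with open reading frame, LOC, LINC, antisense and similar names passed over. Alternatives covered scaling, filter, probe set rule, variance trend, covariates and leaving out arrays or lines. The use of a gene's other probe set as its own feature was added after the data were seen.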

Additional observations from a re-analysis of the deposited data

Results flagged for a closer look

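The glucose difference of IL1B in probe set 205067_at had opposite signs in the lines, at 0.17 in TET2WT, 0.01 in TET2M and -0.10 in Mock, a spread of 0.27 log2 units between the highest and the lowest line. That of IL6 also had opposite signs, at 0.27 in TET2WT, 0.25 in TET2M and -0.38 in Mock, a spread of 0.65. Each line gave 1 pair of arrays, and these differences between single lines were not tested. The test of TET2WT against the mean of both other lines did not pass for either gene (limma, adjusted p = 0.583 for IL1B and 0.739 for IL6). IL6 lay around the low-value level of 2.64 on all arrays, and the second IL1B probe set read lower at high glucose in all 3 lines.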

How the results depend on the processing

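The cytokine values rest on 6 single arrays, so leaving out an array or a line leaves 1 residual degree of freedom, and the interaction could not then be fitted. The labels carry no replicate numbers, and the line term already sets high against normal glucose within each line. Of 180 alternative values of the tested cytokine differences, 159 kept their direction and side of the threshold, 19 changed sign and 2 passed where the values as reported did not. Of 140 alternative values of the cytokine differences given without a test, 109 moved by less than the spread, 27 by more, and 4 changed sign. All 4 belong to IL6. Many alternatives left the difference itself unchanged by design: the filter, trend and covariate settings, and leaving out arrays of a line not compared. With 1 array left out, no gene of the whole table passed for glucose or between TET2M and Mock. The side of the threshold could not change there, so these counts do not measure robustness.

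Signs changed in these cases. For IL1B the glucose difference became -0.15 with probe sets averaged, -0.045 without the TET2WT line and -0.32 in its other probe set, and ran from -0.045 to 0.09 with single arrays left out, and its interaction became -0.0075 with probe sets averaged and -0.23 in the other probe set. For IL11 the difference between TET2M and Mock became 0.10 in the other probe set, and its interaction became -0.11 with probe sets averaged and -0.27 in the other probe set. For IL6 the glucose difference became -0.065 without the TET2WT line and -0.055 without the TET2M line. With single arrays left out, IL6 ran from -0.065 to 0.26 for glucose, from -0.53 to 0.12 for TET2M against Mock, from -0.42 to 0.23 for TET2WT against Mock and from -0.0575 to 0.28 for TET2WT against TET2M. The difference between TET2M and Mock ran from -0.40 to 0.035 for IL1A and from -0.38 to 0.0875 for LIF with single arrays left out.

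The number of cytokine genes passing for glucose was 0, and 2 with an intensity trend. Genes passing for glucose, 1 as reported, were 5 with quantile normalization, 3 with loess, 5 with probe sets averaged, 2 with no filter, 5 with a stricter filter, 573 with a trend, and 0 without the line term, without any 1 line or without any 1 array. Genes passing between TET2M and Mock, 14 as reported, were 25 with probe sets averaged, 22 with a stricter filter, 149 with a trend, 7 without the glucose term, and 0 without the TET2WT line or any 1 array. Genes passing between TET2WT and Mock, 608 as reported, were 1528 with a trend, 318 without the glucose term, 16 without the TET2M line and 0 to 16 without 1 array. Genes passing between TET2WT and TET2M, 476 as reported, were 1249 with a trend, 267 without the glucose term, and 0 without the Mock line or any 1 array. Pathway genes passing were 9 for glucose with a trend, and between TET2M and Mock 1 with a stricter filter and 5 with a trend, against 0 as reported. Between TET2WT and Mock, 5 as reported, they were 12 with a trend, 3 without the glucose term, and 0 without the TET2M line or any 1 array. Between TET2WT and TET2M, 3 as reported, they were 10 with a trend, 1 without the glucose term, and 0 without the Mock line or any 1 array. Apart from the smaller number of arrays where some were left out, the cause of these shifts was not tested.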
